A study of Mus musculus with 18 samples.

Results

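The genes described are *Esr1*, *Esr2*, *Esrra*, *Esrrb*, *Esrrg*, *Gper1*, *Pgr* and *Vil1*, 8 of the 55487 genes counted in whole-thickness mouse ileum. They were found by gene symbol. *Esr1* was chosen by its measured rise over controls in these same libraries, so its values against controls are given as a description, without a test. The other genes were taken by name, as relatives or a target of the estrogen receptor or, for *Vil1*, as the gene whose promoter names the Cre transgene. One library was made from each of 18 littermate mice on the C57BL6/J background, 8 to 13 weeks old and fed chow. The 6 controls lacked *Villin-CreERT2*. The other 12 were IEC-*Ppara* mice, 6 heterozygous and 6 homozygous, which carried *Villin-CreERT2* together with 1 or 2 alleles of CAG-*Ppara*,-*EGFP*, a FLAG-tagged *Ppara* and EGFP cassette in the *Col1a1* locus that Cre turns into its expressed orientation. All mice, controls included, received tamoxifen (100 mg/kg) on 3 days and were collected 2 weeks later, and 3 controls and 2 mice of each IEC-*Ppara* group were female. The study describes its controls by their lack of Cre, and how many alleles of the cassette each one carried is not given in the sources used here. Because Cre and the Cre-dependent inversion of the cassette were present or absent together in these groups, their effects on a gene cannot be told apart.

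Estrogen receptors alpha (*Esr1*) and beta (*Esr2*) are hormone-activated transcription factors that bind DNA as dimers at estrogen response elements. The estrogen-related receptors (*Esrra*, *Esrrb* and *Esrrg*) share their fold but bind no estrogen, and *Esrra* and *Esrrg* are known for driving mitochondrial genes together with the coactivators PGC-1α and PGC-1β. *Gper1* encodes a membrane receptor that responds to estrogen, and *Pgr*, the progesterone receptor, is a classical target of estrogen receptor alpha in reproductive tissue. *Vil1* encodes villin, the actin-bundling protein of the enterocyte brush border. CreERT2 is Cre recombinase fused to a mutated ligand-binding domain of the human estrogen receptor alpha, which holds the enzyme out of the nucleus until tamoxifen is bound.

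The libraries held from 38528522 to 50376371 counts. Values are given as CPM, counts scaled to a common library total, or as FPKM, which also divides by exon length, where genes are compared with each other. *Esr1*, *Esrra*, *Esrrg* and *Vil1* exceeded 3 CPM in at least 4 libraries and were tested by edgeR among 12645 protein-coding genes, and the other 4 lay below that filter. The epithelial marker list summed to between 13296 and 17647 CPM, and none of its 10 genes was at 0 in any group. The summed smooth muscle markers ranged from 521 to 5698 CPM in controls, from 657 to 4156 CPM in heterozygous and from 3890 to 8970 CPM in homozygous mice. The libraries of control mouse 6 and heterozygous mouse 3 were the lowest of these.

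*Esr1* (ENSMUSG00000019768) spans chr10:4611593-5005614 on the plus strand of GRCm38, with 13661 bases of exon. In controls it was at 5.00, 7.62, 4.47, 7.84, 4.24 and 2.34 CPM (5.25 ± 2.12, SD, n = 6), from between 93 and 384 reads. In heterozygous mice it was at 76.2, 82.1, 75.9, 79.8, 92.8 and 78.8 CPM (80.9 ± 6.25, SD, n = 6), and in homozygous mice at 85.2, 82.7, 67.6, 67.4, 81.4 and 76.7 CPM (76.8 ± 7.74, SD, n = 6). The 2 IEC-*Ppara* groups overlapped each other and neither overlapped the controls. The lowest IEC-*Ppara* library stood 8.59-fold above the highest control. The heterozygous mean was 15.4-fold and the homozygous mean 14.6-fold the control mean in CPM. In the edgeR fit, with libraries scaled by TMM, the log2 fold changes were 3.99 (SE 0.20) and 3.89 (SE 0.20). Without control mouse 6, the control lowest in *Esr1*, these were 3.86 and 3.76, and without heterozygous mouse 3 they were 4.01 and 3.89.

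**Figure D1:**
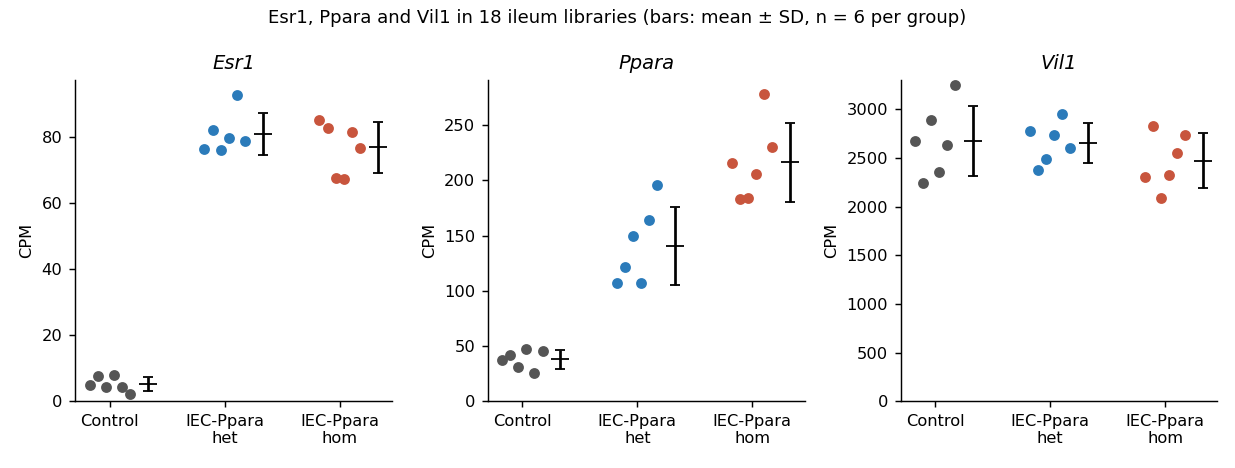
CPM of *Esr1*, *Ppara* and *Vil1* in each library (points) by genotype, with mean ± SD (bars, n = 6 per group) on axes that start at 0. *Esr1* rises from 5.25 to 80.9 and 76.8 CPM with no step between the IEC-*Ppara* groups, and *Vil1* overlaps in all groups. *Ppara* means are 141 and 216 CPM with 1 and 2 alleles. These groups overlap only through heterozygous mouse 6, and their difference did not pass the adjusted test over all genes.

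No difference in *Esr1* between mice with 1 and 2 *Ppara* alleles was detected. Between homozygous and heterozygous mice its log2 fold change was -0.10 (SE 0.17, 95% confidence interval -0.47 to 0.26, edgeR adjusted p = 0.898), and the group means stood in a ratio of 0.949. *Ppara* itself was at 38.1 ± 8.40 CPM in controls, 141 ± 35.4 CPM in heterozygous and 216 ± 35.5 CPM in homozygous mice (SD, n = 6 each). Its ratio of homozygous to heterozygous means was 1.53, with a log2 fold change of 0.59 (SE 0.17, edgeR adjusted p = 0.485), which did not pass the test over all genes. Of the heterozygous libraries, only that of mouse 6 (196 CPM) lay above the lowest homozygous library (184 CPM). The study called genes by unadjusted P, and by that measure *Ppara* passed between these groups. Of the 12645 genes, 0.00791% were called in this comparison, and none of the 4 tested members was among them, by edgeR, DESeq2 or limma-voom, or had an unadjusted p under 0.05, which 7.61% of all genes had.

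Relative to *Vil1*, the controls had 2.08 ± 1.07 *Esr1* counts for every 1000 of *Vil1*, the heterozygous mice 30.6 ± 2.37 and the homozygous mice 31.2 ± 3.27 (SD, n = 6 each). The heterozygous libraries lay between 27.4 and 34.5 and the homozygous libraries between 28.0 and 36.9 on this ratio, so the groups overlapped over most of their ranges. As a coefficient of variation of CPM, the spread of *Esr1* between mice was 40.4% among controls, 7.72% among heterozygous and 10.1% among homozygous mice. For *Vil1* it was 13.6%, 7.77% and 11.4%, and for *Ppara* 22.0%, 25.1% and 16.4%. *Esr1* thus varied between IEC-*Ppara* mice by about as much as *Vil1* did, and between controls by more.

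No difference in *Esr1* between the sexes was detected. In controls the 3 females averaged 5.06 ± 2.75 CPM and the 3 males 5.44 ± 1.89 CPM (SD), and over both IEC-*Ppara* groups the 4 females averaged 80.6 ± 2.96 CPM and the 8 males 78.0 ± 8.47 CPM (SD). With genotype in the model, the log2 fold change of females against males was 0.00 (95% confidence interval -0.33 to 0.33, edgeR adjusted p = 0.998). None of the 4 tested members was called between the sexes, where 0.0554% of all genes were, and by edgeR 0 of the 4 had an unadjusted p under 0.05, against 3.39% of all genes.

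*Esr1* and *Vil1* lie on different chromosomes, and the bases before their starts are shown because *Vil1* lends its promoter to the Cre transgene while *Esr1* is the gene whose counts rose. The sequences are RefSeq's for GRCm38.p6, 250 bases upstream of the start, with the first transcribed base in capitals. They cover chr1:74409134-74409384 and chr10:4611739-4611989, both on the plus strand, and the second belongs to the first of 2 *Esr1* starts in the table. The annotation of the count files begins *Esr1* further upstream, so the printed *Esr1* bases lie inside the gene as those files place it.
Vil1: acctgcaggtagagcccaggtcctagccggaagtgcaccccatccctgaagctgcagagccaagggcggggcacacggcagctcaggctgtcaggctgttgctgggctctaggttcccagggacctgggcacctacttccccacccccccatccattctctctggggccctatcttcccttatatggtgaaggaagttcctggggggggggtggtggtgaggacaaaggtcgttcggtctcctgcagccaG
Esr1: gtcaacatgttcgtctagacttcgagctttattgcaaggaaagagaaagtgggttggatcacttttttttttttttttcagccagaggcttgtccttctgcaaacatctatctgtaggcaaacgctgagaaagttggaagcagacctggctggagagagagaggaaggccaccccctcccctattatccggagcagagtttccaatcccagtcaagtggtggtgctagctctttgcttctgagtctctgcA
The *Vil1* stretch had 62.9% G and C and the *Esr1* stretch 47.4%. How much of the *Vil1* promoter the transgene carries is not given in the sources used here.

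Windows from 250 bases before to 50 bases after each start were searched on both strands for the estrogen response element (GGTCA, any 3 bases, then TGACC), for the estrogen-related receptor element TCAAGGTCA and for the half-site GGTCA that both contain. All 8 genes matched the table, with 13 windows. None held either full element, which 0.0700% and 0.423% of the 32851 windows in the table held. The half-site was in 4 of the 13 windows (30.8%), in *Esr1*, *Esr2*, *Esrrb* and *Esrrg*, against 40.5% of all windows. Neither stretch printed above holds the half-site, so the *Esr1* match lies outside the printed bases. These are matches of letters only.

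The rise in *Esr1* counts was not shared by the genes beside it. Of the 10 nearest genes with counts, 5 on each side, 4 were tested and none was called by edgeR in either comparison with controls, where 0.411% of all genes were called for homozygous and 0.293% for heterozygous mice. Their log2 fold changes lay between -0.08 and 0.33 in homozygous and between -0.00 and 0.11 in heterozygous mice. The nearest tested gene upstream, *Armt1*, was at 15.6 CPM in controls, 15.4 in heterozygous and 14.8 in homozygous mice. *Ccdc170*, which starts 129 kb upstream, stayed between group means of 0.271 and 0.345 CPM. Downstream, *Syne1*, which encodes nesprin-1 of the nuclear envelope, was at 54.7, 56.4 and 68.4 CPM in the same order (homozygous against control 0.33 on the log2 scale, edgeR adjusted p = 0.596) and was the 1 of the 4 with an unadjusted p under 0.05, which 8.06% of all genes had for homozygous and 5.29% for heterozygous mice against controls. No annotated gene with counts overlapped *Esr1*. The deposited counts give 1 number per gene, so where along *Esr1* the reads fell, and whether any came from the estrogen receptor part of *CreERT2*, was not tested.

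**Figure D2:**
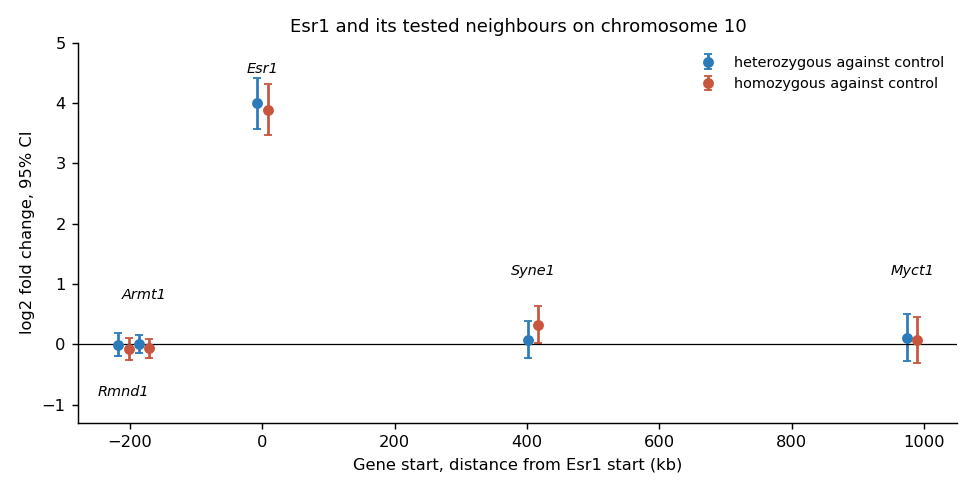
Log2 fold change against controls with its 95% confidence interval (vertical axis) for *Esr1* and the 4 tested genes beside it, by the distance of each gene's start from that of *Esr1* in kb (horizontal axis). *Esr1* stands at 3.99 and 3.89, and its neighbours lie between -0.08 and 0.33.

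*Esr2* was close to undetected. It had 0 counts in 9 of 18 libraries, which allows up to between 0.0596 and 0.0779 CPM per library, and at most 6 counts in any, in heterozygous mouse 3. Summed over each group it had 5 counts in controls, 14 in heterozygous and 6 in homozygous mice. Mean CPM did not differ beyond the spread between mice, with a two-sided exact permutation p = 0.251 for heterozygous against control and p = 1.00 for homozygous against control. Intervals and limits of this kind cover counting error only.

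*Esrra*, the estrogen-related receptor most abundant here, was almost level. It was at 252 ± 15.5 CPM in controls, 258 ± 13.3 CPM in heterozygous and 249 ± 17.3 CPM in homozygous mice (SD, n = 6 each), with single libraries between 218 and 275 CPM. Its log2 fold change against controls was 0.06 (95% confidence interval -0.09 to 0.22) in heterozygous and -0.01 (-0.17 to 0.14) in homozygous mice, with edgeR adjusted p = 1.00 and adjusted p = 0.986. *Esrra* lies at chr19:6910977-6921840 on the minus strand.

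*Esrrg* (chr1:187608791-188214885, plus strand) was low and had its highest values in controls, at 3.76, 3.91, 3.12, 3.04, 2.64 and 2.49 CPM. Heterozygous libraries held 2.74, 2.83, 1.96, 1.71, 1.58 and 2.60 CPM, and homozygous libraries 1.74, 3.34, 2.55, 3.08, 2.38 and 2.14 CPM. The groups overlapped. The log2 fold change was -0.47 (SE 0.19) for heterozygous and -0.31 (SE 0.19) for homozygous mice against controls. Neither passed the test over all genes (edgeR adjusted p = 0.817 and adjusted p = 0.705). The gene met the filter of 3 CPM in 4 libraries through 4 control and 2 homozygous libraries, so its place among the tested genes depended on the group where it is high. Without the filter on CPM its log2 fold changes were again -0.47 and -0.31 and did not pass (edgeR adjusted p = 0.955 and adjusted p = 0.686).

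*Esrrb* (chr12:86361117-86521628, plus strand), best known from embryonic stem cells, was at 1.68 ± 0.719 CPM in controls, 1.40 ± 0.309 CPM in heterozygous and 1.34 ± 0.378 CPM in homozygous mice (SD, n = 6 each). Its counts ran from 30 to 109 per library. The exact permutation tests of the mean difference gave p = 0.431 for heterozygous and p = 0.353 for homozygous mice against controls. The differences, -0.277 and -0.337 CPM, were -0.0469 and -0.106 CPM without control mouse 4, the highest control at 2.83 CPM, and -0.462 and -0.521 CPM without control mouse 6. The heterozygous difference was -0.175 CPM without heterozygous mouse 3.

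*Gper1* (chr5:139423151-139427800, plus strand) was at 2.01 ± 0.614 CPM in controls, 2.07 ± 0.890 CPM in heterozygous and 1.55 ± 0.364 CPM in homozygous mice (SD, n = 6 each). Homozygous libraries lay between 1.01 and 1.84 CPM, inside the range of heterozygous libraries, from 1.04 to 3.22 CPM, except for the lowest. The difference of homozygous from control mice had an exact permutation p = 0.123, and that from heterozygous mice p = 0.221. Single libraries moved the difference from control mice, -0.462 CPM in all. It was -0.260 CPM without control mouse 1 and -0.640 CPM without control mouse 3, the lowest control at 1.12 CPM, with an adjusted p of 0.764 and 0.0519 over the exact permutation tests of these low genes.

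*Pgr* (chr9:8899833-8968611, plus strand) was at 0.746 ± 0.342 CPM in controls, 0.548 ± 0.135 CPM in heterozygous and 0.560 ± 0.298 CPM in homozygous mice (SD, n = 6 each), from 10 to 68 counts per library. Its means were lower, not higher, in both IEC-*Ppara* groups, and neither difference passed, with exact permutation p = 0.208 and p = 0.342. The differences, -0.199 and -0.187 CPM, were -0.0782 and -0.0661 CPM without control mouse 2, the highest control at 1.35 CPM. The homozygous difference was -0.115 CPM without homozygous mouse 2 and -0.284 CPM without homozygous mouse 3. Over the 12 tests of these low genes, the lowest adjusted p was 0.605. In the library of control mouse 6, the lowest of the controls in smooth muscle markers, *Esr1*, *Esrrb*, *Esrrg* and *Pgr* were each at their control minimum (2.34, 0.756, 2.49 and 0.353 CPM). *Gper1* (1.86 CPM) was not, and *Esrra* and *Vil1* were at their control maximum (266 and 3247 CPM). In heterozygous mouse 3, also low in these markers, *Esr1* (75.9 CPM) and *Esrrb* (0.886 CPM) were at the group minimum, but *Esrrg* (1.96 CPM) and *Pgr* (0.464 CPM) were not. In bulk tissue, fewer cells of a type and less RNA per cell cannot be told apart.

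*Vil1* (chr1:74409376-74435559, plus strand) was among the abundant transcripts, at 2675 ± 364 CPM in controls, 2655 ± 206 CPM in heterozygous and 2472 ± 282 CPM in homozygous mice (SD, n = 6 each). Single libraries ranged from 2243 to 3247, from 2379 to 2949 and from 2088 to 2827 CPM. Its log2 fold change against controls was 0.01 (95% confidence interval -0.24 to 0.26, edgeR adjusted p = 1.00) in heterozygous and -0.11 (-0.36 to 0.14, edgeR adjusted p = 0.848) in homozygous mice. The deubiquitinase gene *Usp37*, on the other strand, shares exon bases with *Vil1* and was at 78.3, 78.2 and 71.6 CPM in controls, heterozygous and homozygous mice. Reads on shared bases are left out of both counts if the authors counted without strand, which their methods do not state. None of the 6 tested genes beside or over *Vil1* was called by edgeR against controls, beside 0.411% of all genes for homozygous and 0.293% for heterozygous mice.

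**Figure D3:**
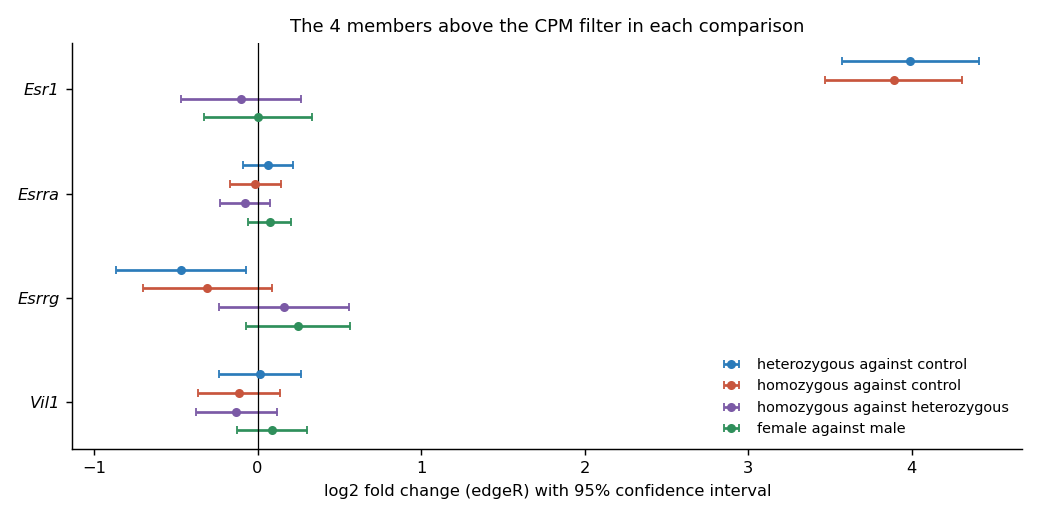
Log2 fold changes from edgeR (points) with 95% confidence intervals (bars) for the 4 genes above the CPM filter in 4 comparisons, with 0 marked by the vertical line. *Esr1* against controls stands at 3.99 and 3.89, and all other values lie between -0.47 and 0.24.

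Ordered by level per length in controls, *Vil1* was at 753 FPKM and *Esrra* at 57.0 FPKM, each clear of its neighbours. *Gper1* (0.793 FPKM), *Esrrg* (0.509), *Esr1* (0.384) and *Esrrb* (0.277) followed, and each overlapped the next in its range over the 6 controls. *Pgr* was at 0.0873 FPKM, with its highest library inside the *Esrrb* range, and *Esr2* at 0.0058 FPKM lay below every *Pgr* value. In IEC-*Ppara* mice *Esr1* took the third place at 5.77 ± 0.515 FPKM (SD, n = 12), above every *Gper1* value and below every *Esrra* value, while the order of the other genes was the same in each group.

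**Figure D4:**
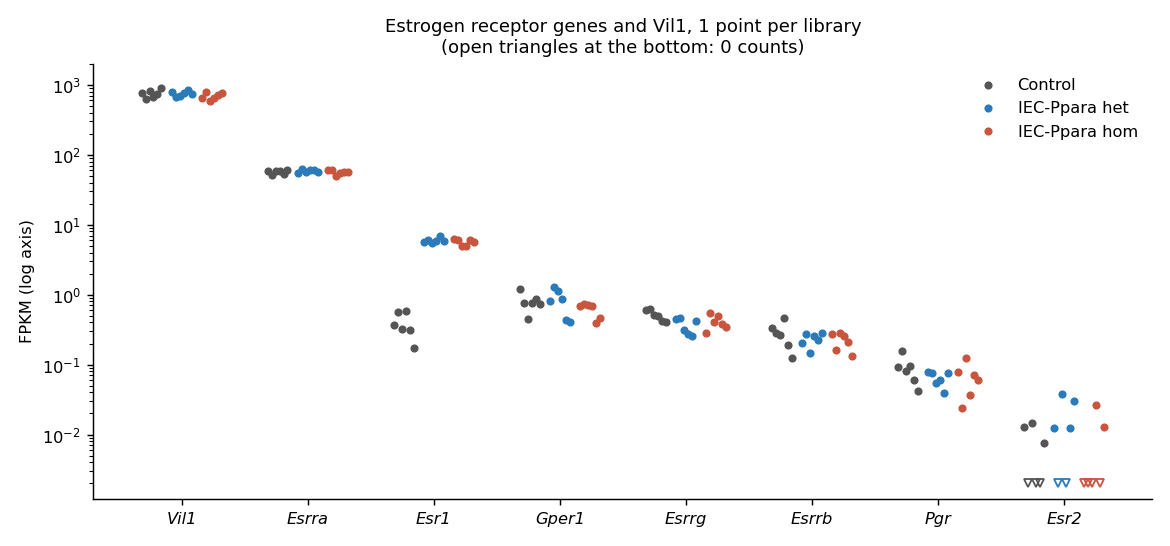
FPKM on a log axis for the 8 genes, with 1 point per library coloured by genotype and open triangles at the bottom for libraries with 0 counts. *Esr1* is the gene whose IEC-*Ppara* points lie apart from its control points, and *Esr2* has 9 libraries at 0.

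Within the IEC-*Ppara* mice, *Esr1* was higher in libraries with more epithelial RNA. Over the 12 libraries, log2 CPM of *Esr1* correlated with the mean of the epithelium list (Pearson r = 0.752, permutation p = 0.00528, adjusted p = 0.0264 over 10 relations; Spearman rho = 0.636, p = 0.0295, adjusted p = 0.295) and inversely with the fibroblast list (r = -0.786, permutation p = 0.00382, adjusted p = 0.0264; rho = -0.406, p = 0.193). The epithelium relation was alike within heterozygous (r = 0.716) and homozygous mice (r = 0.733), and the fibroblast relation was r = -0.700 and r = -0.877. Both relations rested in part on the extreme libraries. Without the 2 farthest from the median of the list, r was 0.490 and -0.407, and leaving out heterozygous mouse 5 or homozygous mouse 3 alone brought the adjusted p to 0.0963 or 0.0948 for either list, as did homozygous mouse 4 for the fibroblast list (0.0573).

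With *Vil1* the correlation over the 12 libraries was r = 0.599 (permutation p = 0.0396, adjusted p = 0.0990; rho = 0.392, p = 0.211). Without the 2 libraries farthest from the *Vil1* median it was 0.134, so it rests on those libraries. With TMM scaling it was 0.762 and passed (adjusted permutation p = 0.0165), and it also passed without homozygous mouse 1, at 0.754. The correlation with *Ppara* was r = -0.06 (permutation p = 0.862; rho = 0.01, p = 0.974), and that with smooth muscle r = -0.258 (permutation p = 0.398; rho = -0.217, p = 0.498). The smooth muscle value was -0.507 without the 2 libraries farthest from the median, -0.688 without heterozygous mouse 3 (adjusted permutation p = 0.0547) and -0.02 without homozygous mouse 3. Within heterozygous and homozygous mice, r was 0.491 and 0.572 with *Vil1*, 0.283 and 0.361 with *Ppara*, and 0.146 and -0.550 with smooth muscle.

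In the 6 controls the signs over all libraries were the other way round for *Vil1*, epithelium, fibroblast and smooth muscle. *Esr1* correlated inversely with *Vil1* (r = -0.954, exact permutation p = 0.0111, adjusted p = 0.0370; rho = -0.771, p = 0.103) and positively with smooth muscle (r = 0.814, exact permutation p = 0.05, adjusted p = 0.1; rho = 0.429, p = 0.419). Epithelium (r = -0.740, exact permutation p = 0.122) and fibroblast (r = 0.703, exact permutation p = 0.111) did not pass. Without the 2 libraries farthest from the median, r over the 4 left was -0.854 for *Vil1*, 0.966 for smooth muscle and 0.08 for fibroblast. For epithelium it turned to 0.567, so the sign of that relation depended on the libraries left out. Values of r over 4 libraries are too uncertain to decide more. With TMM scaling and all 6 controls, r for epithelium was -0.867 and passed (adjusted permutation p = 0.0333). Without 1 control at a time the *Vil1* r stayed between -0.977 and -0.900, with an adjusted p from 0.0417 to 0.146, while that with smooth muscle went down to 0.299 without control mouse 6 and up to 0.969 without control mouse 5. All values are shares of 1 library, so more of one tissue means less of another, and whether the relations differ between controls and IEC-*Ppara* mice was not tested.

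**Figure D5:**
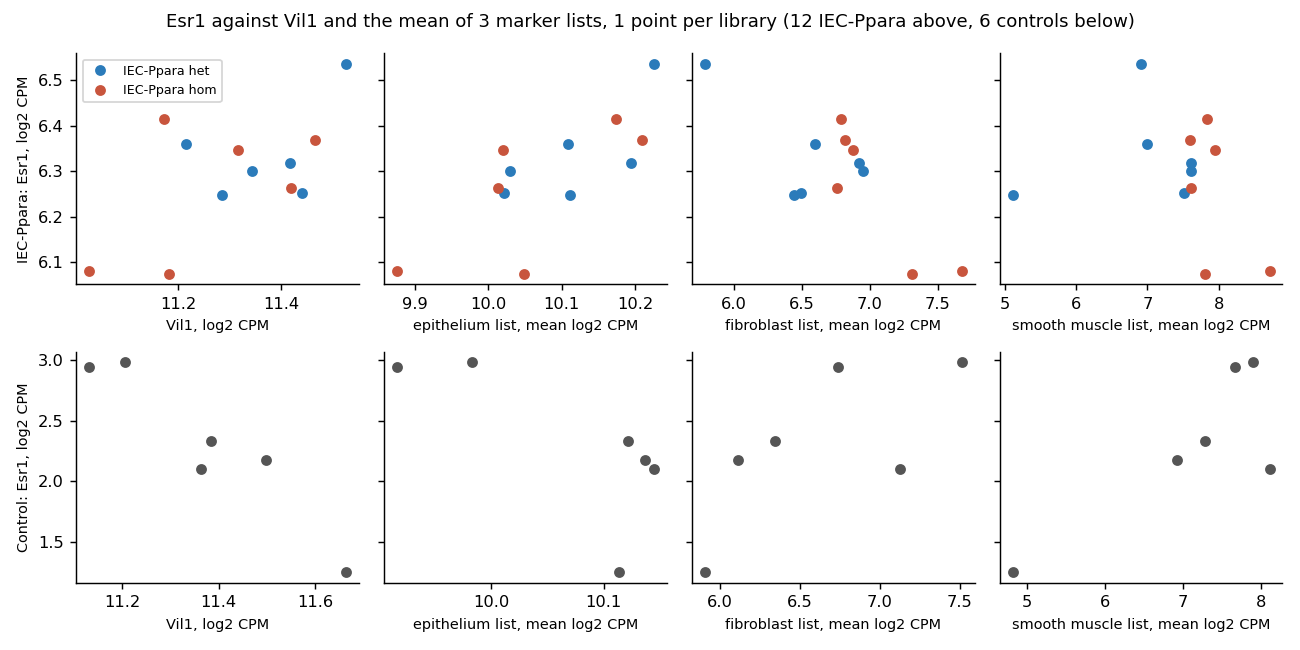
Log2 CPM of *Esr1* (vertical axes) against log2 CPM of *Vil1* or the mean log2 CPM of the epithelium, fibroblast and smooth muscle lists (horizontal axes), with 1 point per library for the 12 IEC-*Ppara* mice (upper row) and the 6 controls (lower row). In the upper row r is 0.599 for *Vil1*, which did not pass after adjustment, and 0.752 for epithelium, and in the lower row it is -0.954 for *Vil1* and -0.740 for epithelium, which did not pass and turned to 0.567 without 2 libraries. With TMM scaling, r for *Vil1* in the upper row was 0.762 and r for epithelium in the lower row -0.867, and both passed.

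Among the 10 genes most like *Esr1* over all 18 libraries, by Pearson r of log2 CPM, were *Fabp1* (r = 0.968), *Cyp4a10* (0.947), *Pdk4* (0.939), *Pianp* (0.938), *Ppara* (0.925), *Cyp2c66* (0.924), *Aqp3* (0.921), *Acaa1b* (0.909) and *Acadvl* (0.906). These include the fatty acid binding protein *Fabp1* and the pyruvate dehydrogenase kinase *Pdk4*. All had lower means in controls than in both IEC-*Ppara* groups. *Esr1* was chosen by that same step, so these r values restate it and are given as a description. Within the 12 IEC-*Ppara* libraries their r with *Esr1* lay between -0.512 for *Pianp* and 0.170 for *Acadvl*, and none of the 10 was close to *Esr1* there.

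A list of 22 known targets of estrogen receptor alpha was set beside the *Esr1* counts, and the called genes were not searched for other targets. Of the 22 genes 17 were tested, and none was called in either direction in homozygous or heterozygous mice against controls by edgeR, DESeq2 or limma-voom. Of all genes, edgeR called 0.411% for homozygous and 0.293% for heterozygous mice. At an unadjusted p under 0.05, edgeR had 1 gene, *Rasd1*, in homozygous and 0 in heterozygous mice, where 8.06% and 5.29% of all genes did. Their median log2 fold change was 0.12 in homozygous and -0.04 in heterozygous mice, beside -0.00 and -0.01 over all genes tested. The complement gene *C3* was widest, from 70.0 to 2439 CPM in controls and from 372 to 4537 CPM in homozygous mice (0.78 on the log2 scale, SE 0.89, edgeR adjusted p = 0.868). The small G protein gene *Rasd1* averaged 1.85 ± 1.11 CPM over controls and 3.07 ± 1.30 CPM over homozygous libraries (SD, n = 6 each), a difference of 0.75 on the log2 scale (edgeR adjusted p = 0.607), which ran from 0.52 without homozygous mouse 4 to 1.11 without control mouse 4. *Igfbp4*, a binding protein of insulin-like growth factors, and the immediate early gene *Fos* came next at 0.32 and 0.31. The trefoil peptide gene *Tff1*, a classical target in breast cells, was at 0 in all but 1 library.

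Targets of the estrogen-related receptors, here 15 genes of the citric acid cycle, respiratory chain and fatty acid oxidation, were all tested and none was called by any of these tools. The shares of all genes called by edgeR were 0.411% for homozygous and 0.293% for heterozygous mice. At an unadjusted p under 0.05 there was 1 gene in each comparison, *Acadm*, against the same 8.06% and 5.29% of all genes. Their median log2 fold change was -0.05 in homozygous and 0.01 in heterozygous mice. The acyl-CoA dehydrogenase gene *Acadm* was highest at 0.14 and 0.23 (edgeR adjusted p = 0.612 and adjusted p = 0.282), and *Ogdh*, *Sdhb* and *Mdh2* stood at -0.14, -0.12 and -0.12 in homozygous mice.

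Of 20 listed coregulators and chaperones of steroid receptors 19 were tested. By edgeR, DESeq2 or limma-voom 0 were called, where edgeR called 0.411% of all genes for homozygous and 0.293% for heterozygous mice, and by edgeR 0 had an unadjusted p under 0.05, against 8.06% and 5.29% of all genes. Their log2 fold changes lay between -0.15 and 0.13 in homozygous and between -0.17 and 0.16 in heterozygous mice. Among the largest in homozygous mice were the Mediator subunit *Med1* (-0.15), the immunophilin *Fkbp5* (-0.14) and the HSP90 gene *Hsp90aa1* (0.12). HSP90 holds the ligand-binding domain of steroid receptors ready for hormone. Of the other steroid receptors, *Nr3c1* (glucocorticoid receptor) was at 173 and 171 CPM in control and homozygous mice and *Nr3c2* (mineralocorticoid receptor) at 68.3 and 79.8 CPM, and neither passed.

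Among 12 genes of estrogen synthesis and inactivation, 11 were in the files and 8 were tested. *Hsd17b4* and *Hsd17b11* rose in both comparisons, by DESeq2 and limma-voom as well, and the other 6 were not called, where 0.411% of all genes were called for homozygous and 0.293% for heterozygous mice. By edgeR an unadjusted p under 0.05 was found for 2 of the 8 in homozygous and 4 in heterozygous mice (3 by limma-voom), against 8.06% and 5.29% of all genes. The other 2 in heterozygous mice were *Cyp1a1* and *Hsd17b2*, which inactivates estradiol (log2 fold change 0.28, edgeR adjusted p = 0.870). *Hsd17b11*, a lipid droplet dehydrogenase, was at 222 ± 12.5 CPM in controls, 377 ± 70.0 CPM in heterozygous and 420 ± 59.7 CPM in homozygous mice (SD, n = 6 each). Its log2 fold change was 0.80 (SE 0.11) and 0.92 (SE 0.11), with edgeR adjusted p = 0.000951 and adjusted p = 0.000144. *Hsd17b4*, best known as the D-bifunctional protein of peroxisomal β-oxidation, was at 160 ± 19.6, 235 ± 36.3 and 250 ± 12.6 CPM in the same order (SD, n = 6 each; log2 fold changes 0.59 and 0.65, edgeR adjusted p = 0.00740 and adjusted p = 0.00166). With only the 12 libraries of heterozygous and control mice, the first of these was at an edgeR adjusted p = 0.0942. Both genes are also among those the study listed from these libraries, so they are not independent evidence about this list. The estrogen-metabolising cytochrome *Cyp1a1* was at -2.13 in heterozygous mice (SE 0.73, edgeR adjusted p = 0.635), with control libraries from 2.71 to 40.9 CPM. The highest was control mouse 5, without which the value was -0.78 (edgeR adjusted p = 1.00). Aromatase (*Cyp19a1*) was at or near 0 in every group, with 0.0199 CPM as its highest value, in a control library.

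Partners of villin in the brush border, 10 genes that include the myosins *Myo1a* and *Myo7b*, fimbrin (*Pls1*) and harmonin (*Ush1c*), were all tested. By edgeR, DESeq2 or limma-voom 0 were called, where edgeR called 0.411% of all genes for homozygous and 0.293% for heterozygous mice. By edgeR 0 had an unadjusted p under 0.05, against 8.06% and 5.29% of all genes. Their median log2 fold change was -0.05 in homozygous and 0.07 in heterozygous mice, and the 10 epithelial markers stood at -0.02 and 0.06. The 10 smooth muscle genes all had positive values in homozygous mice (median 0.57) and negative values in heterozygous mice (median -0.18). Single libraries stood apart in this list and bear on these medians, which were not recomputed without them. As mean log2 CPM, control mouse 6 was low at 4.81, heterozygous mouse 3 low at 5.11 and homozygous mouse 3 high at 8.72. The 10 fibroblast genes had medians of 0.35 and -0.08, with 10 and 3 of them above 0. The 6 B cell genes had negative values in both groups (medians -3.11 and -1.5), and their summed CPM ranged from 10.5 to 361 over controls, from 8.15 to 210 over heterozygous and from 6.74 to 63.6 over homozygous libraries. The medians of these sums were close, at 13.2, 12.3 and 8.88 CPM. As mean log2 CPM the list was high in control mice 2 and 3 (5.84 and 5.55), heterozygous mouse 2 (5.03) and homozygous mouse 1 (3.24). It was at most 0.845 in every other library. No gene of these lists was called by edgeR, DESeq2 or limma-voom, beside the same 0.411% and 0.293% of all genes by edgeR. At an unadjusted p under 0.05 edgeR had all 6 B cell genes and 1 fibroblast gene in homozygous mice, beside 8.06% of all genes. The B cell genes were high together in a few libraries, so they do not count as 6 separate results. DESeq2 had the same numbers, while limma-voom had 0 of the B cell genes and 1 fibroblast gene. The part of these tissues in the *Esr1* values against controls was not tested.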

How the data were processed

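Poly-A RNA of 18 ileum samples was sequenced by the authors in paired-end reads, aligned with STAR to GRCm38 (Ensembl) and counted per gene with featureCounts from uniquely aligned, unambiguous reads. The counts were deposited without normalization. The deposited CPM are these counts over the library total, the FPKM deposited by the authors divide also by exon length, and the log2 values they deposited are CPM moderated by a prior not given in the sources used here. Reads shared by near-identical genes are not counted.

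Mice were grouped by the genotype in the labels. The 12645 protein-coding genes above 3 CPM in at least 4 libraries, of 13709 genes above it, were fitted in edgeR 4.0.16 (R 4.3.3; TMM, quasi-likelihood test, genotype as the only term except in the sex comparison, all 18 libraries), with Benjamini-Hochberg adjustment at 0.05. This recovered 84 of 100 genes simulated with a log2 change of 1 for homozygous against control (12645 genes). The SE given with edgeR fold changes were calculated back from each fold change and its F statistic, and the confidence intervals from these SE. That holds also for *Esr1* against controls. Genes below the filter were compared by exact permutation over 924 arrangements, and correlations, on log2 CPM (prior count 2), used 100000 permutations or all orders. DESeq2 1.42.0, limma-voom (limma 3.58.1), other scalings, filters, covariates, a block by replicate number and leaving out each library were alternatives. Tables used Python 3.11.15 and pandas 2.3.3.

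The members and gene lists were chosen with earlier results of these data known. Named are all members, list genes called or, failing that, up to 4 with the highest absolute change in homozygous mice, neighbours of *Esr1* and *Vil1*, and the 10 genes most like *Esr1*. *Cyp1a1*, *Cyp19a1*, *Hsd17b2* and *Tff1* were chosen after their values were seen. A few genes these rules would name are not reported.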

Additional observations from a re-analysis of the deposited data

Results flagged for a closer look

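Within groups of 6, a library was set apart where its gap to the nearest other exceeded 0.625 of the group's range. Of 36 groups examined, 4 held such a library, and chance alone gives about 1 in 20. Heterozygous mouse 5 had 92.8 CPM of *Esr1*, above the next at 82.1 CPM. For the smooth muscle list, as mean log2 CPM, control mouse 6 was low at 4.81 (next 6.93), heterozygous mouse 3 low at 5.11 (next 6.91) and homozygous mouse 3 high at 8.72 (next 7.95).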

How the results depend on the processing

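Called genes numbered 52 for homozygous and 37 for heterozygous against control, 1 for homozygous against heterozygous and 7 between the sexes. With DESeq2 they were 136, 82, 9 and 8. For heterozygous against control, only the 12 libraries compared gave 23 and the replicate block 22, and single libraries left out gave 25 to 53. For homozygous against heterozygous, all biotypes, DESeq2 size factors, no CPM filter, 12 libraries, the replicate block and the sex covariate each gave 0, and left-out libraries 0 to 2. The replicate numbers do not pair the mice: 9 of 18 same-number pairs correlated over 0.1, and 2 of 18 libraries correlated best with their own number. Under the block *Esr1* stood at 3.93 and 4.03 against controls.

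*Esr1* against controls kept its size under every alternative run, from 3.76 to 4.02 in homozygous and from 3.86 to 4.12 in heterozygous mice. Values near 0 changed sign without passing a test. *Esr1* between the sexes was -0.0018 with DESeq2, -0.0010 with all biotypes, -0.0024 with library size, -0.15 with the block, -0.27 without genotype and -0.093 to 0.096 without single libraries. *Esrra* in homozygous mice was 3.53e-05 with all biotypes, 0.00039 with the sex covariate and -0.051 to 0.033 without single libraries, and *Vil1* in heterozygous mice -0.01 with library size and -0.042 to 0.11. On log2 CPM the differences were -0.022 for *Esr2* in homozygous and -0.025 for *Gper1* in heterozygous against control, and -0.093 for *Pgr* between the IEC-*Ppara* groups. Leave-one-out ranges that crossed 0, in CPM, were -0.011 to 0.0083 and -0.17 to 0.27 for the first 2, -0.085 to 0.084 for *Pgr* and -0.16 to 0.046 for *Esrrb* between those groups.

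*Hsd17b4* in heterozygous mice lost its call in the 12-library fit (edgeR adjusted p = 0.0942) and the block (edgeR adjusted p = 0.0549). With TMM, *Esr1* correlated with *Vil1* at 0.762 in IEC-*Ppara* mice and with epithelium at -0.867 in controls, both then past the adjusted threshold, and with *Ppara* at 0.028. Without single libraries the *Ppara* r ran from -0.14 to 0.055, and in controls from -0.13 to 0.91. Without homozygous mouse 1 the *Vil1* r in IEC-*Ppara* mice was 0.754 and passed. The *Vil1* relation in controls lost its call in 5 of 6 such fits. The cause was not tested in any of these.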
